A study of Mus musculus with 6 samples.

Results

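The genes described here are 52 ligands, receptors, SMAD proteins, antagonists and feedback targets of transforming growth factor beta (TGF-beta), activin and bone morphogenetic protein (BMP) signaling, out of 35275 genes in the expression table. They were chosen by their role in the pathway and by the measured difference between knockout and GFP-Rgnef libraries, with Inhba and Gdf6 as the leading ligands and Id1 to Id4, Smad6 and Smad7 as readouts. Differences and calls of these genes in that comparison are therefore given as a description. The first group is 3 libraries of ID8-KMF cells with the genotype Rgnef -/-, called knockout here. The second is 3 libraries of the same Rgnef-/- cells carrying lentiviral GFP-Rgnef, called GFP-Rgnef here. ID8-KMF is a C57Bl6/J mouse ovarian cancer line, made by passaging ID8 cells in mice, and both groups were grown subconfluent in dishes with Matrigel. All 6 libraries lack endogenous Rgnef, no unedited parental library was analysed here, and the construct, its GFP tag and the lentivirus cannot be told apart. Whether the knockout line is 1 clone is not given in the sources used here.

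Ligands of this family are secreted dimers that bring together a type I and a type II serine/threonine kinase receptor. TGF-beta and activin receptors phosphorylate SMAD2 and SMAD3, BMP receptors phosphorylate SMAD1, SMAD5 and SMAD9, and both kinds join SMAD4 to enter the nucleus. The Id genes, Smad6 and Smad7 are classical transcripts of this signal, and the last pair encodes inhibitory SMADs that close a feedback loop. In the ovary, activins and BMPs act on follicle growth and on the surface epithelium.

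Poly-A RNA was measured as FPKM, fragments scaled to transcript length and sequencing depth, so that levels of different genes can be compared per length. Implied depths were 15898965 to 17977069 reads per library. Arhgef28, the gene of Rgnef, averaged 0.120 ± 0.0123 FPKM in knockout libraries and 52.7 ± 3.93 FPKM in GFP-Rgnef libraries (SD, n = 3 each), which fits the labels. Of 11 ovarian surface and mesothelial markers 9 averaged at least 1 FPKM, including Wt1, Msln and Krt8, while Krt7 and Lrrn4 were below that. Of these, Krt18 was called lower in knockout, at 224.4 FPKM against 319.8 in GFP-Rgnef libraries. The 5 general epithelial markers, 2 of them at 1 FPKM or more, summed to 103.6 to 163.6 FPKM in knockout and 69.76 to 100.9 FPKM in GFP-Rgnef libraries, with Krt14 called higher and Epcam near 0. The part of these markers in the results below was not tested. Of 7 leukocyte markers 1 reached that level (Cd68), and of 5 endothelial markers 1 (Tek, at 124.3 FPKM in knockout and 103.8 in GFP-Rgnef libraries), with Adgre1, Cd3e and Kdr at 0 in all libraries. The libraries numbered 3 stood apart in both groups on the second principal component, which held 25.2% of the variance. On chromosomes 7 and 9, 28.8% and 36.6% of tested genes were called higher in knockout, against 4.53% elsewhere. Separate cultures are not named for libraries of the same group, so each p-value reflects differences among these libraries alone, which may be technical. In bulk RNA, fewer cells that use a gene and less RNA per cell cannot be told apart.

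Knockout libraries had more RNA of the activin subunits Inhba and Inhbb, of the growth differentiation factor Gdf6 and of the secreted antagonists Fstl1 and Nog. The readouts were mixed: Smad6 was called higher and Id1 lower, Id2, Id3 and Smad7 were not called, and Id4 was not tested. Smad6 and Id1 each lost the call in some alternative settings. Of the 52 genes, 40 had a mean of at least 0.5 FPKM and were tested. Among these 8 were called higher in knockout and 4 lower, by limma at an adjusted p below 0.05 over 11500 genes, of which 8.04% were called higher and 5.34% lower. The median log2 difference of the 40 was 0.16, against -0.02 for all tested genes. These and all differences below are on the log2(FPKM + 1) scale, where changes of low genes come out too small. The 3 knockout libraries lay above all 3 GFP-Rgnef libraries for 12 of the 40 and below them for 6, where 16.7% of all tested genes did so in each direction. Nothing is read from these shares, since the same comparison helped to choose the list. Of the 12 called genes, 5 kept their call in all alternative settings that tested them: Inhba, Gdf6, Fstl1, Nog and Smad1. This too is a description, since Inhba and Gdf6 led the choice of the list. Nog reached the minimum of 0.5 FPKM only through the knockout libraries.

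**Figure D1:**
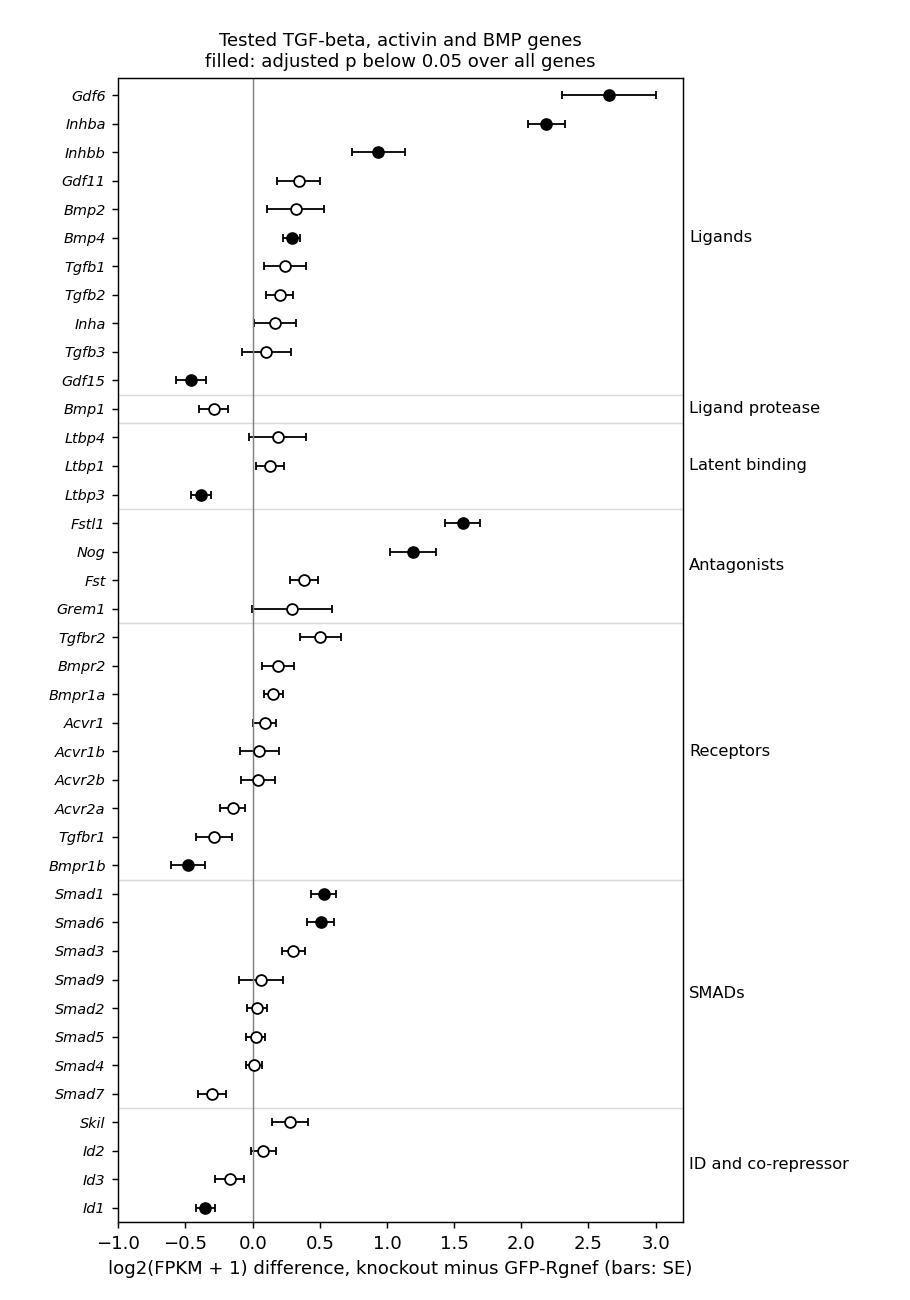
Difference in log2(FPKM + 1), knockout minus GFP-Rgnef, for the 40 tested genes by role, with SE bars (3 libraries per group) and filled points for genes called over all genes. Gdf6, Inhba, Fstl1 and Nog lie farthest to the right, at 2.65, 2.19, 1.56 and 1.20. The receptors lie between -0.48 (Bmpr1b) and 0.50 (Tgfbr2), and the SMADs between -0.30 (Smad7) and 0.53 (Smad1).

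Among activin subunits 2 of 3 rose, where 8.04% of all tested genes did. Nothing is read from this count, since Inhba led the choice of the list. Inhba (GRCm38 chromosome 13, 16011851 to 16031621, plus strand) encodes the beta A subunit, 2 copies of which form activin A. It had 29.8, 29.9 and 27.2 FPKM in knockout libraries 1, 2 and 3, against 6.44, 6.28 and 4.25 FPKM in GFP-Rgnef libraries 1, 2 and 3. The groups were far apart and library 3 was the lowest in each, with 793 to 933 reads per knockout library and 128 to 191 per GFP-Rgnef library. The mean rose 5.12-fold in knockout, with a log2 difference of 2.19 (SE 0.136). Inhbb, the beta B subunit, also rose, with 3.22, 2.85 and 1.74 FPKM in knockout libraries, against 1.04, 1.08 and 0.503 FPKM in GFP-Rgnef libraries. Its ratio of means was 2.98 and its log2 difference 0.94 (SE 0.198), and it lost its call without knockout 1 or 2, or with no filter on low values (differences of 0.78 to 1.12 with any 1 library left out). Inha, the alpha subunit that turns activin into inhibin, was low in both groups, at 0.910 ± 0.318 FPKM in knockout and 0.687 ± 0.0818 FPKM in GFP-Rgnef libraries (SD, n = 3 each), and was not called. In every library Inhba stood above Inhbb per length, by 9.26 to 15.6 times in knockout and by 5.82 to 8.45 times in GFP-Rgnef libraries.

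Gdf6 (chromosome 4, 9844372 to 9862345, plus strand), a BMP-type ligand known for its role in joints and the skull, had 51.5, 53.3 and 23.7 FPKM in knockout libraries, against 7.74, 6.71 and 3.21 FPKM in GFP-Rgnef libraries. The groups did not overlap, and in each of them library 3 was lower than libraries 1 and 2 by more than a factor of 2. The mean was 7.27 times higher in knockout, with a log2 difference of 2.65 (SE 0.351). Bmp4, the most abundant ligand of the list in both groups, had 75.5, 73.5 and 70.4 FPKM in knockout libraries, against 62.4, 58.1 and 58.4 FPKM in GFP-Rgnef libraries. This was a small rise of 1.23-fold (log2 difference 0.29, SE 0.064), which was not called without knockout 1, knockout 2 or GFP-Rgnef 2 (differences of 0.27 to 0.32 with any 1 library left out). Gdf15, a divergent family member induced by cell stress, was the 1 of 11 tested ligands that fell, where 5.34% of all tested genes did. It had 2.51, 2.67 and 2.86 FPKM in knockout libraries, against 3.74, 3.74 and 4.75 FPKM in GFP-Rgnef libraries, a ratio of 0.657 (log2 difference -0.46, SE 0.114). With 1 library left out it kept its call only when that library was knockout 3 (differences of -0.51 to -0.37). It was also not called by voom on recovered reads, without a filter on low values or after removal of chromosome medians.

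Bmp2, an osteogenic BMP, averaged 4.68 ± 1.05 FPKM in knockout and 3.60 ± 1.14 FPKM in GFP-Rgnef libraries, and Gdf11, a ligand close to myostatin, 4.31 ± 0.889 and 3.19 ± 0.663 FPKM (SD, n = 3 each), with neither called. Bmp6, Bmp7, Gdf5 and Gdf10 stayed under the test's minimum. Bmp7 had 3 to 5 reads per knockout library against 1 or 2 per GFP-Rgnef library, and each of the other three had at most 1 read in a library. Exons of Bmp6 also overlap the abundant Txndc5 on the opposite strand. By mean FPKM, the order of the most abundant ligands in knockout libraries was Bmp4, Tgfb3, Gdf6, Inhba, Tgfb2 and Tgfb1. There the range of Gdf6 overlapped those of Tgfb3 and Inhba, and the ranges of Tgfb2 and Tgfb1 overlapped. In GFP-Rgnef libraries the order was Bmp4, Tgfb3, Tgfb2, Tgfb1, Gdf6 and Inhba, where Gdf6 and Inhba overlapped each other but not Tgfb1. Gdf6 stood at 0.336 to 0.725 times the level of Bmp4 in knockout libraries and at 0.055 to 0.124 times in GFP-Rgnef libraries.

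**Figure D2:**
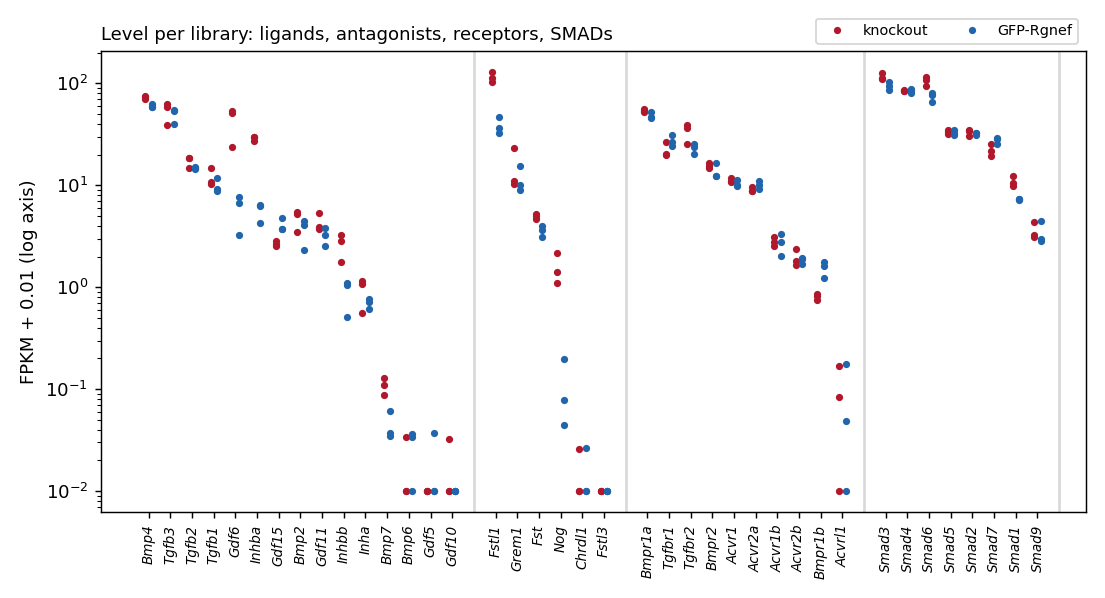
FPKM + 0.01 in each of the 6 libraries on a log axis for ligands, antagonists, receptors and SMADs, ordered in each panel by the GFP-Rgnef mean, knockout left of GFP-Rgnef. Gdf6 and Inhba in knockout libraries stand above the falling order of the GFP-Rgnef points, while Bmpr1b is lower and Tgfbr2 higher in knockout libraries without overlap.

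The TGF-beta ligands were not called. Tgfb3 was the most abundant, at 53.1 ± 12.4 FPKM in knockout and 48.9 ± 8.04 FPKM in GFP-Rgnef libraries. Tgfb2 had 17.2 ± 2.19 and 14.8 ± 0.405 FPKM, and Tgfb1 11.9 ± 2.56 and 9.88 ± 1.64 FPKM (knockout first, SD, n = 3 each). Tgfb2 was called higher without knockout 3 (0.31). Tgfb1 lies on chromosome 7, and its log2 difference of 0.24 was -0.01 once each chromosome's median deviation was removed from each library. Latent TGF-beta binding proteins hold these ligands in the matrix. Ltbp3 was the one that fell, with 112.0, 95.5 and 103.6 FPKM in knockout libraries, against 130.6, 136.2 and 139.8 FPKM in GFP-Rgnef libraries. All knockout values were below all GFP-Rgnef values (ratio 0.765, log2 difference -0.39, SE 0.073), and the call was lost without knockout 2 or GFP-Rgnef 2 (differences of -0.44 to -0.33). Ltbp1 averaged 48.4 ± 4.89 and 44.2 ± 4.97 FPKM and Ltbp4, on chromosome 7, 49.3 ± 13.9 and 42.7 ± 8.72 FPKM (knockout first, SD, n = 3 each), with no call. Ltbp2 was not tested. It had 7, 4 and 70 reads in knockout libraries, against 8, 10 and 22 reads in GFP-Rgnef libraries, so that library 3 of each group was the highest. The fibroblast and smooth muscle markers moved with it, at a summed 7.93, 5.58 and 22.1 FPKM in knockout libraries and 2.43, 3.50 and 7.53 FPKM in GFP-Rgnef libraries, and their part was not tested. Of those 7 markers 2 averaged at least 1 FPKM, Col1a1 and Col3a1, and none was at 0 in all libraries. Bmp1, the protease that trims procollagens and the antagonist chordin, had 8.71, 7.60 and 9.48 FPKM in knockout libraries, against 9.54, 11.9 and 10.8 FPKM in GFP-Rgnef libraries. These did not overlap but were not called.

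Secreted antagonists included the other large differences. Fstl1 (chromosome 16, 37776873 to 37836514, plus strand) encodes a follistatin-domain glycoprotein that restrains BMP4 in the developing mouse lung. It had 103.5, 113.4 and 128.3 FPKM in knockout libraries, against 32.9, 36.3 and 46.2 FPKM in GFP-Rgnef libraries. The gap between the groups exceeded the spread within either, with a ratio of 2.99 and a log2 difference of 1.56 (SE 0.130). Nog (chromosome 11, 89300638 to 89302332, minus strand), which encodes the BMP-binding antagonist noggin, had 1.08, 2.14 and 1.41 FPKM in knockout libraries, against 0.0347, 0.186 and 0.0683 FPKM in GFP-Rgnef libraries. These values rest on 33, 63 and 40 reads in knockout libraries and on 1, 5 and 2 reads in GFP-Rgnef libraries. Per unit of depth the summed reads were 16.4 times higher in knockout (95% exact interval 8.07 to 38.7, counting error only). The interval leaves out the spread between libraries and is no test, since this comparison helped to choose the list. Nog passed the minimum of 0.5 FPKM only through the knockout libraries, and its log2 difference was 1.20 (SE 0.172).

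Fst encodes follistatin, which binds activin almost irreversibly. It had 4.62, 4.99 and 5.21 FPKM in knockout libraries, against 3.95, 3.10 and 3.67 FPKM in GFP-Rgnef libraries. The groups did not overlap, but the log2 difference of 0.38 (SE 0.107) was not called. It was called by voom on recovered reads, with TPM scaling, without limma's trend and with a block for replicate number. The ratio of Inhba to Fst per length was 6.45, 5.99 and 5.21 in knockout libraries, against 1.63, 2.03 and 1.16 in GFP-Rgnef libraries. Grem1, the BMP antagonist gremlin, was highest in library 3 of each group, with 11.04, 10.3 and 23.2 FPKM in knockout libraries, against 8.998, 9.95 and 15.4 FPKM in GFP-Rgnef libraries, and was not called. Chrdl1, another BMP antagonist, had at most 1 read in a library, and Fstl3 was listed at 0 in all 6.

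**Figure D3:**
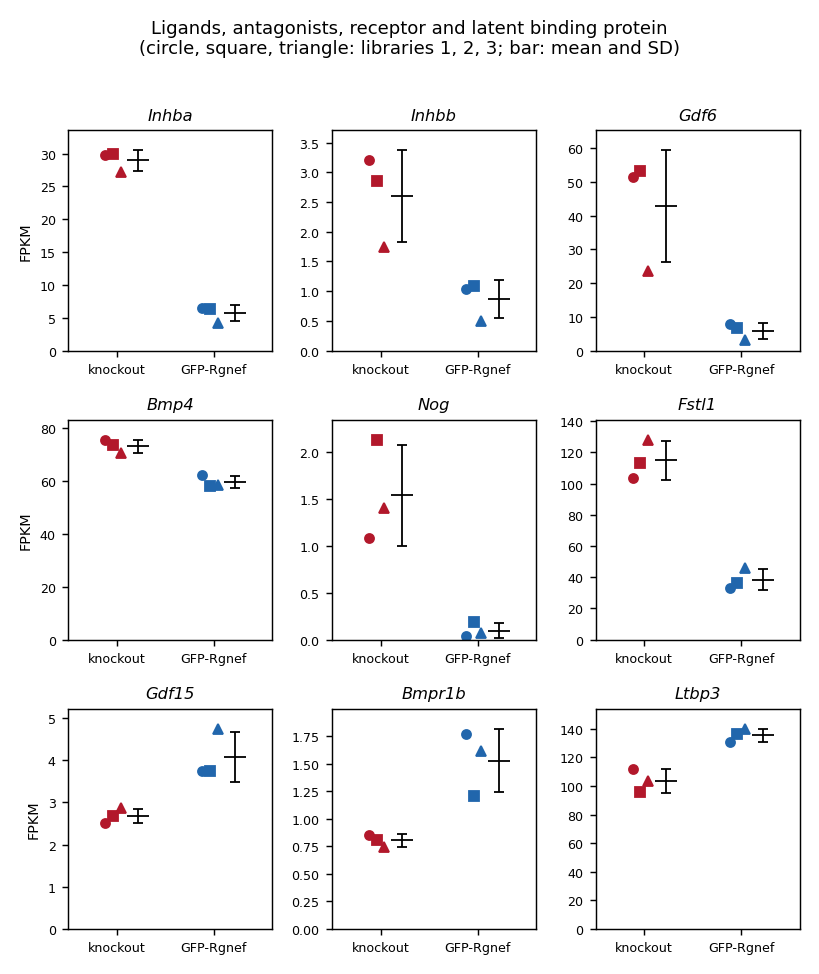
FPKM in each library (circle, square and triangle for libraries 1, 2 and 3), with the mean and SD to the right of each group, for 9 called genes outside the SMAD and Id groups. Inhba, Fstl1 and Nog separate the groups clearly, and in Gdf6 and Inhbb the triangles of both groups lie lowest.

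Promoter sequences of 4 called genes are shown to let their composition and motifs be compared. The RefSeq table (GRCm38.p6) gave windows of 250 bases before to 50 bases after the start for 35 of the 52 genes. The stretches below are the bases upstream of the RefSeq start for Inhba, Inhbb and Fstl1, and 200 bases before to 20 bases after it for Smad6, which was added as the feedback gene that rose. For Fstl1 the RefSeq start lies inside the GENCODE gene given above, so most of its stretch is part of that gene. Capitals mark TATAAA in Inhba, GGGCGG or its complement CCGCCC (the GC box) in the others, and GTCTAGAC, the palindrome bound by SMAD3 and SMAD4, in Smad6.
Inhba, chr13:16011601-16011850, plus strand: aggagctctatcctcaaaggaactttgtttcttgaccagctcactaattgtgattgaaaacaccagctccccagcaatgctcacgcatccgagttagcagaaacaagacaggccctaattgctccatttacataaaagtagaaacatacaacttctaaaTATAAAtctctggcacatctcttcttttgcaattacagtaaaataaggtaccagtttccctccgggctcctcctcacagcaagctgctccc
Inhbb, chr1:119422249-119422498, minus strand: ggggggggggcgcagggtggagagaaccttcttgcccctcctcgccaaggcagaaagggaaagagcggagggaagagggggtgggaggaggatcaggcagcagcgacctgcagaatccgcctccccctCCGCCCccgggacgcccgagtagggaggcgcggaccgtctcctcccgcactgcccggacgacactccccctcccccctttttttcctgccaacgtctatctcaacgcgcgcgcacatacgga
Fstl1, chr16:37776805-37777054, plus strand: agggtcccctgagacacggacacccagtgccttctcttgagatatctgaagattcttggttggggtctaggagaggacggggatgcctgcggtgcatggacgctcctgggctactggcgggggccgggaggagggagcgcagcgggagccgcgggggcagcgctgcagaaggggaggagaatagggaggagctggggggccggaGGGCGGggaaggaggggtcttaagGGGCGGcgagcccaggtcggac
Smad6, chr9:64022040-64022259, minus strand: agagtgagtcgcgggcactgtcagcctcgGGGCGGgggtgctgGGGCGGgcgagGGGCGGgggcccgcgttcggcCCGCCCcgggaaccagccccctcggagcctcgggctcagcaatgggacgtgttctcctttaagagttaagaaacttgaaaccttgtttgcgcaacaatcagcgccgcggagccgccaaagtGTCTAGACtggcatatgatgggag
The Inhba stretch is 43.2% G or C, against 68.0% for Inhbb, 68.0% for Fstl1 and 65.0% for Smad6. Its TATAAA begins at position -91, and 13.6% of all 32851 windows hold this sequence on either strand. GTCTAGAC spans positions -4 to 4 around the Smad6 start, and 0.213% of windows hold it. Among the 35 genes with a window only Smad6 had it. The GC box GGGCGG was in 26 of the 35 and in 35.7% of all windows. Other sequences searched on both strands were CAGACA (a SMAD3-bound sequence, in 6 of the 35 and 6913 windows), GGCGCC (a GC-rich sequence bound by BMP SMADs, in 11 and 11.9%), TGACTCA (the AP-1 site, in 1 and 5.2%) and GGAATG (the TEAD site, in 3 and 14.7%). None of these 4 lies in the windows of Inhba, Inhbb, Fstl1 or Smad6. GGGCGG and GGCGCC can overlap, and a match is only a match of letters.

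Of 9 tested type I and type II receptors 1 fell and 0 rose, a share close to the 13.4% of all tested genes called in either direction. Bmpr1b, a type I receptor that binds GDF5 with high affinity, had 0.854, 0.808 and 0.745 FPKM in knockout libraries, against 1.77, 1.21 and 1.61 FPKM in GFP-Rgnef libraries. The groups did not overlap, on 39 to 48 reads per knockout library and 60 to 94 per GFP-Rgnef library (ratio 0.525, log2 difference -0.48, SE 0.129). The call was lost without any single library (differences of -0.58 to -0.41), and also after removal of chromosome medians, without chromosomes 7 and 9, without a filter on low values and without the libraries numbered 3. The far more abundant BMP type I receptor Bmpr1a averaged 53.4 ± 1.995 FPKM in knockout and 48.0 ± 3.2 FPKM in GFP-Rgnef libraries (SD, n = 3 each), without a call. Its groups all but touched, with 51.7 FPKM in knockout 1 and 51.69 FPKM in GFP-Rgnef 3. Tgfbr2, the TGF-beta type II receptor on chromosome 9, had 38.5, 36.4 and 25.6 FPKM in knockout libraries, against 25.3, 23.9 and 20.1 FPKM in GFP-Rgnef libraries. Its log2 difference of 0.50 (SE 0.154) was not called and was 0.21 after removal of chromosome medians. It was called higher without knockout 3 (0.68), without both libraries numbered 3 (0.59) and with a block for replicate number. Its partner Tgfbr1 went the other way without a call, at 22.1 ± 3.61 FPKM in knockout and 27.1 ± 3.65 FPKM in GFP-Rgnef libraries. Tgfbr1 was called lower without both libraries numbered 3 (-0.31) and with a block for replicate number.

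The remaining receptors were not called with all 6 libraries. The BMP type II receptor Bmpr2 had 14.9 to 16.4 FPKM in knockout and 12.2 to 16.6 FPKM in GFP-Rgnef libraries. It was called higher without GFP-Rgnef 3 (0.325) and without both libraries numbered 3 (0.289). Acvr1, a BMP and activin type I receptor, averaged 11.1 ± 0.452 and 10.4 ± 0.751 FPKM, and the activin type I receptor Acvr1b 2.78 ± 0.281 and 2.69 ± 0.630 FPKM (knockout first, SD, n = 3 each). Acvr2a and Acvr2b, the activin type II receptors, averaged 9.02 ± 0.479 and 1.93 ± 0.389 FPKM in knockout libraries, against 10.1 ± 0.932 and 1.83 ± 0.127 FPKM in GFP-Rgnef libraries. Exons of Acvr2a overlap Orc4 on the opposite strand, and the overlap could hold reads worth 32.6% of the level of Acvr2a if counting ignored strand. The endothelial type I receptor Acvrl1, the co-receptors Tgfbr3 and Eng and the decoy receptor Bambi were under the test's minimum, with at most 4, 11, 19 and 6 reads in a library. Exons of Eng also overlap the more abundant Fpgs.

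Among the SMADs, 2 of 8 rose and 0 fell, where 8.04% and 5.34% of all tested genes did, and 1 of the 2, Smad6, lost its call after removal of chromosome medians. Smad1, a BMP-regulated SMAD, had 9.89, 10.6 and 12.2 FPKM in knockout libraries, against 7.24, 7.29 and 7.13 FPKM in GFP-Rgnef libraries. The GFP-Rgnef libraries were nearly equal and every knockout library lay above them (ratio 1.51, log2 difference 0.53, SE 0.095). The other BMP-regulated SMADs were not called, with Smad5 at 33.4 ± 1.27 and 32.9 ± 1.98 FPKM and Smad9 at 3.57 ± 0.668 and 3.41 ± 0.876 FPKM (knockout first, SD, n = 3 each). Smad3, the TGF-beta and activin SMAD on chromosome 9, had 126.7, 110.4 and 111.8 FPKM in knockout libraries, against 93.3, 103.4 and 86.1 FPKM in GFP-Rgnef libraries. These did not overlap, but the difference of 0.30 (SE 0.087) was not called and was 0.01 after removal of chromosome medians. Smad2, the other SMAD of that branch, averaged 32.8 ± 2.38 and 31.96 ± 0.779 FPKM, and the shared partner Smad4 84.3 ± 1.68 and 83.7 ± 3.70 FPKM (knockout first, SD, n = 3 each), both with no call.

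Of the 2 inhibitory SMADs 1 was called, where 13.4% of all tested genes were called in either direction. Smad6, which blocks BMP signaling, lies on chromosome 9 (63953076 to 64022059, minus strand). It had 107.4, 94.2 and 114.1 FPKM in knockout libraries, against 65.3, 76.1 and 79.9 FPKM in GFP-Rgnef libraries. All knockout libraries were higher (ratio 1.43, log2 difference 0.51, SE 0.099). After removal of chromosome medians the difference was 0.22 and was no longer called, while 36.6% of tested genes on chromosome 9 were called higher. Smad7, which blocks TGF-beta and BMP receptors alike, had 21.9, 19.5 and 25.5 FPKM in knockout libraries, against 28.5, 25.6 and 28.8 FPKM in GFP-Rgnef libraries. The knockout libraries were all lower, though knockout 3 came close to GFP-Rgnef 2, and the log2 difference of -0.30 (SE 0.104) was not called. It was called lower without knockout 3 (-0.40), without both libraries numbered 3 (-0.37) and with a block for replicate number. The ratio of Smad6 to Smad7 was 4.91, 4.82 and 4.48 in knockout libraries, against 2.29, 2.98 and 2.77 in GFP-Rgnef libraries.

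The Id genes encode inhibitors of helix-loop-helix factors and are direct BMP targets. Id1 (chromosome 2, 152736251 to 152737410, plus strand) fell, with 111.5, 113.5 and 123.5 FPKM in knockout libraries, against 140.6, 146.8 and 158.3 FPKM in GFP-Rgnef libraries. The groups did not overlap (ratio 0.782, log2 difference -0.35, SE 0.071), and the call was lost without knockout 1, knockout 2 or GFP-Rgnef 2 (differences of -0.40 to -0.31). Id2 had 91.2, 108.9 and 102.4 FPKM in knockout libraries, against 104.6, 86.7 and 95.04 FPKM in GFP-Rgnef libraries, with overlapping groups. Id3 had 121.2, 112.4 and 152.3 FPKM in knockout libraries, against 138.2, 140.4 and 153.1 FPKM in GFP-Rgnef libraries. Here knockout libraries 1 and 2 were below all GFP-Rgnef libraries and knockout 3 was among them, and neither Id2 nor Id3 was called. Without knockout 3, Id3 was called lower (-0.30). Id4 was nearly silent, with 3, 1 and 0 reads in knockout libraries and 1 read in each GFP-Rgnef library. Skil, which encodes the SMAD co-repressor SnoN and is induced by TGF-beta and activin, had 12.1, 13.01 and 15.8 FPKM in knockout libraries, against 10.3, 9.72 and 13.2 FPKM in GFP-Rgnef libraries, and was not called. Of the 6 genes named as readouts, Smad6 was thus called higher, Id1 lower, Id2, Id3 and Smad7 in neither direction, and Id4 was not tested.

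**Figure D4:**
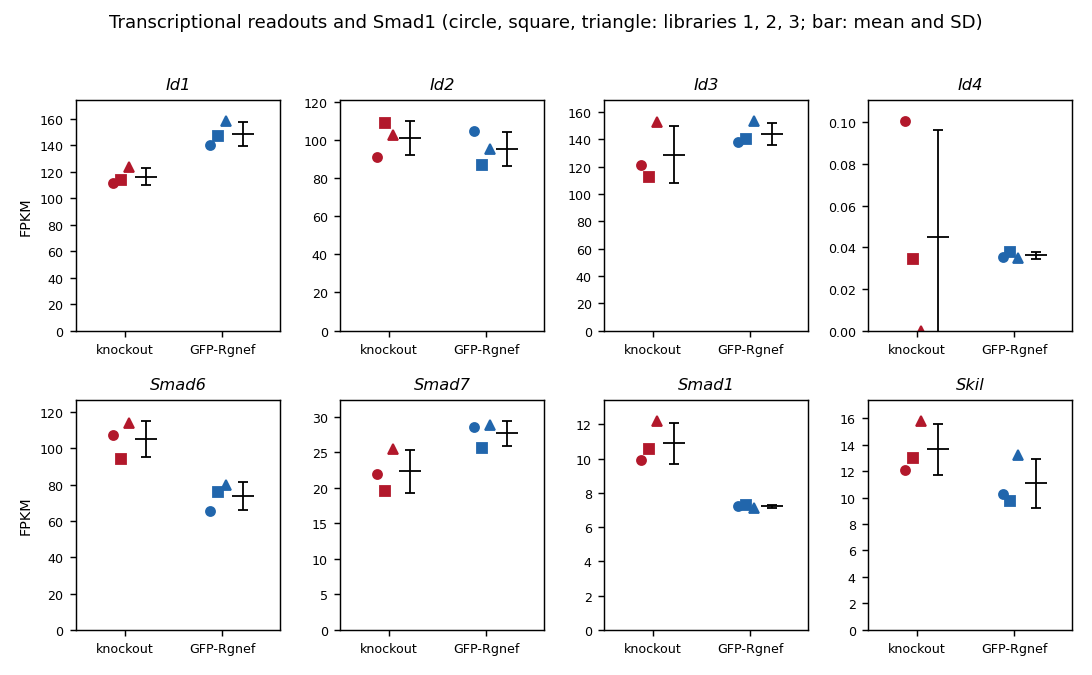
FPKM in each library for the Id genes, Smad6, Smad7, Smad1 and Skil, drawn from 0, with mean and SD beside each group of 3 libraries. Smad6 and Smad1 are higher and Id1 lower in knockout libraries without overlap, Id2, Id3 and Skil overlap, and Id4 rests on 0 to 3 reads per library.

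The libraries numbered 3 differed from libraries 1 and 2 of their group only partly in the same genes. Library 3 was the lowest of its group in both groups for 7 of the 40 tested genes and the highest in both for 14, against 22.2% and 26.0% of all tested genes. For the other 19 it was neither, and Tgfb1 deviated by 0.47 in knockout and by -0.22 in GFP-Rgnef libraries. Those at the bottom were Tgfb3, Inhba, Inhbb, Bmp2, Gdf6, Ltbp4 and Tgfbr2. Gdf6 had the largest such deviation, at -1.11 in knockout and -0.96 in GFP-Rgnef libraries on the log2(FPKM + 1) scale, and Bmp2 deviated by -0.49 and -0.67. Those at the top included Grem1 (1.05 in knockout and 0.65 in GFP-Rgnef libraries), Gdf11, Tgfbr1, Skil, Smad9, Fstl1, Smad6, Smad7, Id1 and Id3. The summed mesothelial markers were lower in the same libraries, at 1738 FPKM in knockout 3, against 2722 and 2661 in knockout 1 and 2, and at 1824 FPKM in GFP-Rgnef 3, against 2678 and 2625 in GFP-Rgnef 1 and 2. Krt19 (678.7 FPKM in knockout 3, against 1309 and 1268 in knockout 1 and 2) and Upk3b (116.3, against 319.1 and 317.8) made up most of this in knockout, while Gata6 was highest in knockout 3 (38.41 FPKM). Their part in these deviations was not tested. With the libraries numbered 3 left out, 11 of the 40 genes were called higher in knockout and 6 lower, while 11.1% of all tested genes were called higher and 9.11% lower. Tgfb2 (0.33), Tgfbr2 (0.59) and Bmpr2 (0.29) were then called higher and Tgfbr1 (-0.31), Smad7 (-0.37) and Id3 (-0.25) lower, and Bmpr1b (-0.43) was not called.

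**Figure D5:**
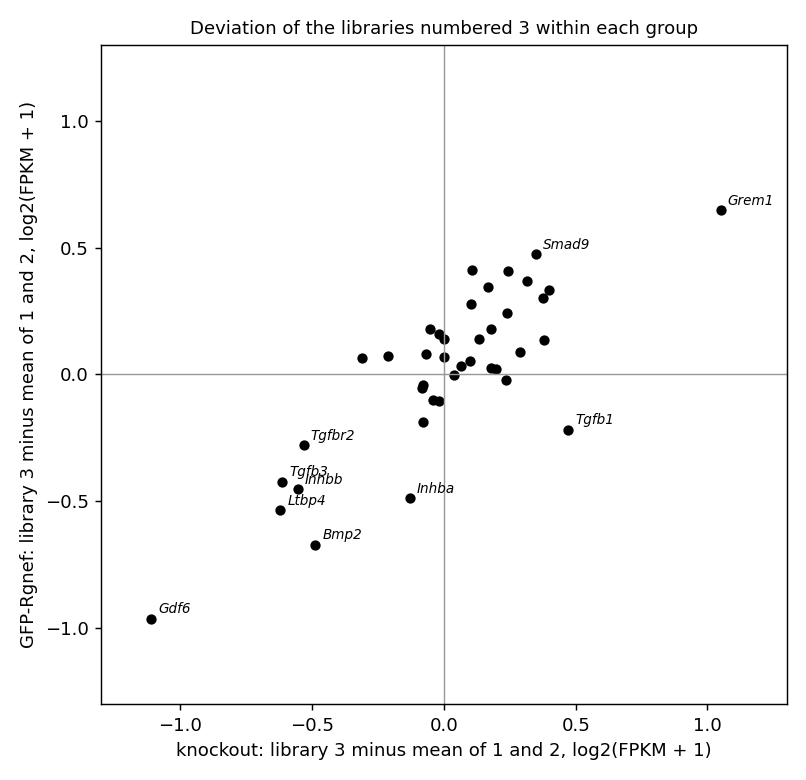
Deviation of library 3 from the mean of libraries 1 and 2 on the log2(FPKM + 1) scale, in knockout (horizontal) and GFP-Rgnef (vertical) libraries, 1 point per tested gene. Gdf6 at -1.11 and -0.96 and Grem1 at 1.05 and 0.65 mark the ends of the diagonal.

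Chromosomal position touched 6 of the tested genes. Tgfb1 and Ltbp4 lie on chromosome 7 and Tgfbr2, Acvr2b, Smad3 and Smad6 on chromosome 9, where the median log2 difference over all tested genes was 0.24 and 0.28. All 6 had positive differences, with a median of 0.27, and only Smad6 was called. After removal of chromosome medians their differences were -0.01 (Tgfb1), -0.06 (Ltbp4), 0.21 (Tgfbr2), -0.25 (Acvr2b), 0.01 (Smad3) and 0.22 (Smad6), with none called. The largest differences lie elsewhere and were as large after this step, at 2.72 for Gdf6, 2.19 for Inhba, 1.62 for Fstl1 and 1.26 for Nog.

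Beyond these genes, 139 further genes of the pathway, listed by role, were looked up and 86 of them were tested. Of these 9 rose (10.5%) and 3 fell (3.49%), near the 8.04% and 5.34% of all tested genes, and their median difference was 0.01. Of 7 other extracellular modulators 2 rose and 0 fell. Bmper, a BMP-binding endothelial regulator on chromosome 9, had 28.8 ± 4.17 FPKM in knockout and 14.1 ± 2.96 FPKM in GFP-Rgnef libraries (log2 difference 0.99, SE 0.151, limma adjusted p = 0.0056), and was called in all alternatives that tested it. Tmeff2, a membrane protein with follistatin domains, had 3.42 ± 0.363 and 1.82 ± 0.216 FPKM (difference 0.65, limma adjusted p = 0.0101, knockout first). Of 6 genes of ligand processing and activation 1 rose, Thbs1, whose product activates latent TGF-beta (difference 0.82, SE 0.139, limma adjusted p = 0.00835), and Pcolce, a procollagen protease enhancer, did not pass (332.4 ± 8.65 FPKM in knockout and 372.6 ± 3.63 FPKM in GFP-Rgnef libraries, limma adjusted p = 0.0846).

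Of 30 tested SMAD regulators 1 rose and 1 fell, where 8.04% and 5.34% of all tested genes did. Wwp2, a ubiquitin ligase of SMADs, fell to 23.2 ± 2.66 FPKM in knockout, against 31.9 ± 2.04 FPKM in GFP-Rgnef libraries (difference -0.45, limma adjusted p = 0.0198). It was not called without knockout 2, GFP-Rgnef 1 or GFP-Rgnef 2 (differences of -0.45 to -0.40). Ldlrad4, a membrane protein that restrains TGF-beta signaling, had 1.23 ± 0.332 FPKM in knockout and 0.254 ± 0.0502 FPKM in GFP-Rgnef libraries (limma adjusted p = 0.00976). It passed the minimum of 0.5 FPKM only through the knockout libraries, and its exons overlap the more abundant Fam210a on the opposite strand. If counting ignored strand, the overlap could hold reads worth 2060% of the level of Ldlrad4. Its values and call can therefore not be assigned to Ldlrad4 itself. Of 12 genes of the branch that does not use SMADs 1 rose, Rhoa on chromosome 9, the GTPase on which Rgnef acts, at 212.4 ± 12.6 FPKM in knockout and 157.2 ± 4.16 FPKM in GFP-Rgnef libraries (limma adjusted p = 0.00529). Its difference of 0.43 was 0.14 after removal of chromosome medians and was then not called. Ppp2r1a, a phosphatase scaffold of that branch, had 374.0 ± 8.51 and 383.1 ± 5.19 FPKM (knockout first, limma adjusted p = 0.735).

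The lists of transcript targets were short, and calls went in both directions. In neither list was the share called, in either direction together, below that of all tested genes. Of 14 tested targets of TGF-beta and activin 2 rose and 1 fell, where 8.04% and 5.34% of all tested genes did. Itgb5, an integrin chain, had 102.3 ± 4.78 FPKM in knockout and 80.6 ± 5.24 FPKM in GFP-Rgnef libraries (limma adjusted p = 0.019), and was not called without knockout 1 or GFP-Rgnef 1 (0.31 and 0.29). Ccn2, connective tissue growth factor, had 33.2 ± 3.11 and 25.7 ± 2.28 FPKM (knockout first, limma adjusted p = 0.0453), and lost its call without knockout 2, knockout 3, GFP-Rgnef 1 or GFP-Rgnef 2 (differences of 0.29 to 0.38 in those fits). Cdkn1a, the cell cycle inhibitor p21, fell to 48.9 ± 2.53 FPKM in knockout, against 62.1 ± 2.17 FPKM in GFP-Rgnef libraries (limma adjusted p = 0.015), and was not called without knockout 2 or GFP-Rgnef 2 (-0.31 and -0.34). Of 10 tested BMP targets 1 rose and 1 fell, beside the same shares of all tested genes. Gata3, a transcription factor, had 4.86, 5.53 and 9.47 FPKM in knockout libraries, against 2.89, 2.82 and 3.35 FPKM in GFP-Rgnef libraries (limma adjusted p = 0.0267), and was not called without knockout 2, GFP-Rgnef 1 or GFP-Rgnef 2 (differences of 0.84 to 0.97). Zfpm1, a cofactor of GATA factors, fell to 43.3 ± 5.18 FPKM in knockout, against 74.7 ± 8.23 FPKM in GFP-Rgnef libraries (difference -0.78, SE 0.11, limma adjusted p = 0.00456). Of 6 tested receptors and co-receptors outside the list Neo1 (neogenin, on chromosome 9) rose, at 23.2 ± 2.12 FPKM in knockout and 17.96 ± 0.226 FPKM in GFP-Rgnef libraries (difference 0.35, limma adjusted p = 0.0307), and lost its call without any single library but knockout 3 (differences of 0.31 to 0.35), and after removal of chromosome medians (0.05). Lrp1, a large endocytic receptor of the same list, did not pass (51.2 ± 13.8 FPKM in knockout and 74.2 ± 11.8 FPKM in GFP-Rgnef libraries, limma adjusted p = 0.1). Of 17 further ligands only Lefty1, an antagonist of Nodal, reached the minimum, at 12.5 ± 1.05 and 13.9 ± 1.03 FPKM (knockout first, limma adjusted p = 0.36).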

How the data were processed

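Messenger RNA of 3 knockout and 3 GFP-Rgnef libraries was enriched with poly-T beads before NEBNext Ultra library construction, per the labels' protocols. The authors deposited 1 table of FPKM values for 35275 Ensembl gene identifiers. The submitters' processing notes name CASAVA 1.8, TopHat2 2.0.9, DESeq2 and mm10. The counter, annotation and strand handling are not given in the sources used here. GENCODE M 21 (GRCm38) gave symbols for 34490 identifiers. Low values were whole multiples of 1 read, so reads were recovered within 0.02 for all 19655 genes above 0, with the annotated exon length for 4228 and the smallest fitting length for 15427.

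Values were transformed to log2(FPKM + 1) and compared, knockout minus GFP-Rgnef, with limma (3.58.1, trended variance, under R 4.3.3). Of all genes 11500 averaged 0.5 FPKM or more and entered the fit. P-values were adjusted by Benjamini-Hochberg over these genes, and a gene was called below 0.05. The fit was tested on simulated data. Plots used matplotlib 3.10.9. The members and lists were chosen with earlier results of these data known. All 52 members are named, with values per library for called members and the Id, Smad6 and Smad7 readouts. Of each further list up to 4 called genes with the smallest p are named, filled up to 2 with the most abundant. Of 143 symbols in those lists 4 were not matched. Replicate numbers are not said to pair libraries, so no block was used. Alternatives are given in the closing section.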

Additional observations from a re-analysis of the deposited data

How the results depend on the processing

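The depth of each library limits genes with few reads, such as Nog, Bmpr1b and Id4, and 3 libraries per group limit small differences. The numbers of genes called in knockout were 925 higher and 614 lower over all genes, 8 and 4 among the 52 genes, and 9 and 3 among the other pathway genes. Without a filter on low values, 394 genes were lower, and 2 of the 52. With a mean FPKM of at least 5, 2 of the 52 were lower. With chromosome medians removed, 494 genes were higher and 388 lower, and 2 of the 52 were lower. Without chromosomes 7 and 9, 393 genes were higher, and 5 of the other pathway genes. Without the libraries numbered 3, an alternative chosen after seeing the data, 1048 genes were lower, and 9 of the other pathway genes. Leaving out 1 library at a time gave 455 to 850 genes higher and 198 to 578 lower. It gave 6 to 10 of the 52 higher and 0 to 5 lower, with 0 lower without knockout 2 and without GFP-Rgnef 2, and 5 to 11 of the other pathway genes higher and 1 to 6 lower. Same-numbered libraries deviated from their group means with correlations of 0.32, -0.02 and 0.55 for numbers 1, 2 and 3. Knockout 1 correlated best with GFP-Rgnef 2 (0.40). Deviations from a mean of 3 libraries depend on each other, so these values do not settle whether the numbers pair the libraries. A replicate block gave 1517 genes higher and 1253 lower, 13 of the 52 higher, and 16 of the other pathway genes higher and 10 lower. Genes called with the block but not in the main fit included Gdf11, Tgfbr2, Smad3 and Fst (higher) and Tgfbr1 and Smad7 (lower). The causes of these shifts were not tested.

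Differences that changed sign belonged to genes without a call. With chromosome medians removed, they were -0.008 for Tgfb1, -0.064 for Ltbp4, -0.251 for Acvr2b and 0.039 for Ppp2r1a, and without the libraries numbered 3, -0.017 for Smad4. With 1 library left out at a time, the differences spanned -0.039 to 0.307 for Tgfb3, -0.011 to 0.394 for Ltbp4, -0.087 to 0.163 for Acvr1b, -0.065 to 0.111 for Acvr2b, -0.002 to 0.094 for Smad2, -0.011 to 0.069 for Smad5, -0.057 to 0.217 for Smad9, -0.023 to 0.039 for Smad4 and -0.059 to 0.507 for Grem1.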
